A study of Sus scrofa with 36 samples.

Results

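The chemokines, the interleukins and their receptors were followed in the thyroid gland of growing pigs. Members were the array probes whose gene name in the files began with CCL, CXCL, CCR or CXCR and a digit, or with IL and a digit. Of 60305 probes on the array, 159 probes of 91 genes carried such a name. Of these, 118 probes of 70 genes were marked by the scanner software as well above background in 5 or more of the 6 pigs of some group, and these 118 were tested among 46222 probes in all. The names in the files were updated through current gene tables, so that IL8 is given as CXCL8, and the probes named ACKR3 and CXCR7 carried the same 60 bases and measure 1 transcript. The gene whose name fits the rule without being a cytokine or a receptor is IL4I1, an amino acid oxidase.

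Whole thyroid glands were taken from 36 castrated male pigs of the Creole breed (CR, a tropical breed from the Caribbean), the Large White breed (LW) and their F1 cross. The 6 groups held 6 pigs each. Thermoneutral (TN) pigs were kept at 24 °C, and heat-stressed (HS) pigs carry a label of 30 °C, whereas the growth protocol gives 32 °C for 5 days. TN pigs were slaughtered before the exposure and HS pigs after it, so temperature and time of slaughter cannot be told apart. Each breed came from few families, and pen, sire, dam and day of slaughter are not in the labels, so breed and family cannot be told apart. Replicate numbers used below only name a pig. Every signal below is the log2 of a quantile-normalised spot intensity, and a change is a difference of such values, so that 1 is a doubling. A probe was called when the Benjamini-Hochberg adjusted p of limma's moderated test over all 46222 probes was under 0.05.

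Chemokines are small secreted proteins that guide leukocytes along gradients, and they act through receptors with membrane-spanning helices that couple to G proteins. CXC ligands such as CXCL2 and CXCL8 attract neutrophils through CXCR2, CCL2 attracts monocytes through CCR2, CCL19 and CCL21 lead lymphocytes and dendritic cells through CCR7, and CXCL12 holds CXCR4-bearing cells near stroma and endothelium. Interleukins carry signals among leukocytes and tissue cells, and thyroid follicular cells can themselves secrete chemokines such as CXCL10 when exposed to interferon gamma.

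The array read these transcripts with 60-base probes, and the probes of a gene were not always separate measurements. The 118 probes held 113 distinct sequences, with 4 pairs of identical probes within a gene and 13 pairs within a gene that shared at least 15 bases. The IL15 probes are shown because 2 of the 3 that differed between the breeds overlap, and the 29 bases they share are in capitals:
IL15, probe A_72_P035856: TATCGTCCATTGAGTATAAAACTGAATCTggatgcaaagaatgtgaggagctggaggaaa
IL15, probe O14994: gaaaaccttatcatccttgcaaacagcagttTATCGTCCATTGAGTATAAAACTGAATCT
Both CXCL2 probes that were lower in HS pigs read nearly the same sequence. Past their longest identical run, of 29 bases, they match again up to the end of A_72_P732383, apart from a base present only in A_72_P146411. The run of 29 bases is given in capitals:
CXCL2, stretch shared by probes A_72_P146411 and A_72_P732383: AATGCCTTGTTTAGAGTTAATTACACTGT
The next 2 probes are shown, with no part in capitals, because each read a higher signal in LW than in CR while another probe of its gene was not called:
CXCL12, probe A_72_P232477: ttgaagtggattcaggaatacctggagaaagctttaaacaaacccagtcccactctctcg
CCL21, probe A_72_P165806: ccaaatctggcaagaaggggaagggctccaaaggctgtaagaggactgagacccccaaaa

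The array also carried 34 further probes with exactly the sequence of a tested member. Of the 34 pairs of a member and such a copy in which both passed the filter, 31 gave heat changes within 0.1 of each other and 33 gave LW minus CR changes within 0.1. The CXCL2 copy changed by -0.85 with heat against -0.90 for the member, and the CCL2 copy by -0.53 against -0.54. The largest gap in heat change, 0.21, was that of IL1A.

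The arrays had 72.8 to 80.3% of their probes well above background, and none had a saturated spot. They lay on 5 slides, and slides 1 to 4 each held all 6 groups. Follicular cell markers fitted the labelled tissue: 10 of 13 listed genes were tested, among them TG with a mean signal of 18.80, and none of the 10 was called with heat. In whole tissue, fewer cells of a type and less RNA per cell cannot be told apart.

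All 70 tested genes fell into 14 CC ligands, 9 CXC ligands, 6 CC receptors, 7 CXC receptors counting ACKR3 and CXCR7, 17 interleukins, 16 interleukin receptors or receptor subunits, and IL4I1. The other 21 genes by name were not tested, and they included CCR3, CCR4, CCR6, IL4, IL7R, IL13, IL17A, IL18R1, IL21 and IL22. Interleukins were the family with most genes left out, 10 of 27, followed by their receptors with 7 of 23. Every CXC ligand and receptor that carried such a name on the array was measured.

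The first comparison asked which of these transcripts differed between HS and TN pigs over the 3 breeds. CXCL2, a neutrophil attractant, fell 1.86-fold, and CCL2, the monocyte attractant also known as MCP-1, fell 1.45-fold to 1.48-fold. Of the 118 members, 5 probes of these 2 genes were called, all lower in HS pigs, which is 4.24% of members. These 5 include 2 CCL2 probes of identical sequence and 2 CXCL2 probes of nearly the same sequence, so repeat readings add to the share. Among all tested probes 1.18% were called, made up of 0.876% of all tested probes called lower and 0.303% called higher. The median change of the members was -0.03 and that of all tested probes 0.01, with 61.0% of members and 44.4% of all probes below 0. At an unadjusted p under 0.05, 18 members (15.3%) and 9.74% of all probes passed.

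The brightest CXCL2 probe was A_72_P146411. Its signal over the 18 TN pigs was 10.30 at the lowest, 11.18 at the median and 12.29 at the highest, and over the 18 HS pigs it was 9.80, 10.21 and 11.63. The ranges overlapped, although all 18 HS pigs lay below the TN mean of their own breed. The change was -0.90 (SE 0.14, adjusted p 6.75e-05), and the breeds taken singly gave -0.85 (CR), -0.95 (F1) and -0.89 (LW). The probe A_72_P732383, nearly the same in sequence, changed by -0.84 (SE 0.14, adjusted p 0.000222). A further probe named CXCL2 in the files, O8155, had a change of 0.20 (adjusted p 0.653), and its deviations from the group means followed those of A_72_P146411 with r = 0.19 over 36 pigs, against r = 0.97 between both called probes. O8155 was annotated with another accession than the other probes, and which transcript it reads was not tested.

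CCL2 had 3 probes, 2 of them identical in sequence. For the probe of the highest signal, A_72_P035346, the TN pigs ran from 10.77 through a median of 11.50 to 11.97, and the HS pigs from 10.31 through 10.90 to 11.56. The groups overlapped, and 17 of 18 HS pigs lay below the TN mean of their breed. The change was -0.54 (SE 0.11, adjusted p 0.00304). CR pigs gave -0.35, F1 pigs -0.41 and LW pigs -0.86, and the test of interaction did not call a difference between them (unadjusted p 0.102). The other probes changed by -0.56 (adjusted p 0.00219) and -0.55 (adjusted p 0.00226).

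**Figure D1:**
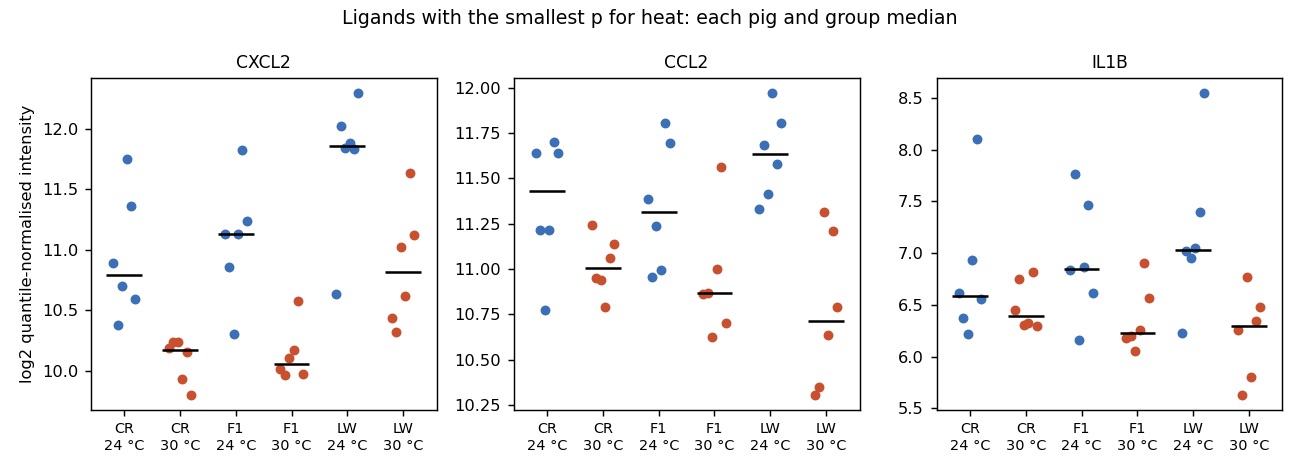
Log2 quantile-normalised intensity of CXCL2 (A_72_P146411), CCL2 (A_72_P035346) and IL1B (A_72_P441479), 1 point per pig, blue at 24 °C and red at 30 °C, with a bar at the median of each group of 6. Within each breed the CXCL2 median is lower at 30 °C, as from 11.86 to 10.82 in LW, and the IL1B points at 24 °C spread up to 8.54.

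IL1B, the inflammatory cytokine made by activated monocytes and macrophages, came next by p and did not pass. Its TN values ran from 6.16 through 6.90 to 8.54 and its HS values from 5.63 through 6.32 to 6.91. The HS pigs thus lay in the lower part of the TN range or below it, with 17 of 18 below the TN mean of their breed. The change was -0.63 (SE 0.17, adjusted p 0.0624), and it was called with slide as a fixed block (adjusted p 0.0447) or as a random block (adjusted p 0.0444). It was also called when any of 5 single pigs was left out, namely LW TN replicate 1, CR TN replicates 2 and 3, F1 TN replicate 3 and F1 HS replicate 5, with an adjusted p down to 0.0345. A tested probe outside the naming rule, A_72_P463511, was named IL-1beta in the files and carries the current symbol IL1B2. That probe changed by -0.12 with heat (adjusted p 0.615).

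The other members with the smallest p for heat were CXCR2, IL1A and IL15. CXCR2, the receptor of CXCL2 on neutrophils, had a change of -0.32 (SE 0.09, adjusted p 0.108) and 17 of 18 HS pigs below the TN mean of their breed. IL1A, which acts on the same receptor as IL1B, had a change of -0.42 at probe O1485 (SE 0.13, adjusted p 0.126), and changes of -0.17 and -0.08 at its other probes. The O1485 value ran from -0.91 to -0.29 over the processing settings. IL15, a cytokine that sustains natural killer and memory T cells, had a change of -0.27 at probe A_72_P035856 (SE 0.09, adjusted p 0.218). Each of these 3 was called when a pig was left out: CXCR2 without CR TN replicate 2 (adjusted p 0.0466), IL1A without LW TN replicate 1 or CR TN replicate 4, and IL15 without F1 TN replicate 4 (adjusted p 0.0363).

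Markers of leukocytes and blood were read beside these ligands. Of 12 neutrophil markers listed, 8 were tested, 7 of them below 0 with a median change of -0.21, and BPI alone was called, at -1.68 (adjusted p 0.00588). The mean signal of the 8 was between 8.66 and 9.97 over the TN pigs and between 8.27 and 9.07 over the HS pigs, and MPO was not well above background. Of 15 macrophage and monocyte markers, 14 were tested, all below 0 with a median of -0.14 and none called, and their mean ran from 9.64 to 10.22 in TN and from 9.37 to 10.28 in HS. HBB, the beta chain of haemoglobin, fell by 1.00 (adjusted p 0.00142), and 5 of 5 tested erythroid markers lay below 0. T and NK cell markers (14 tested) had 6 above 0 and 8 below, with a median of -0.01. B and plasma cell markers (8 tested) had 6 above and 2 below, with a median of 0.01, and the 2 tested dendritic cell markers lay above 0. Outside leukocytes, all 7 adipocyte markers lay below 0 (median -0.30), as did 9 of 10 fibroblast and pericyte markers (median -0.10). None in these 5 lists was called. The part of these cell types and of blood in the fall of CXCL2 and CCL2 was not tested.

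By family, the members with heat ran as follows. CXC ligands ranged from -0.90 to 0.20 and CC ligands from -0.56 to 0.16, with the called probes at the lower ends. Interleukins ranged from -0.63 to 0.14. CXC receptors ranged from -0.39 to 0.07, interleukin receptors -0.12 and 0.24 and CC receptors between -0.15 and 0.12, with no call in these 3.

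**Figure D2:**
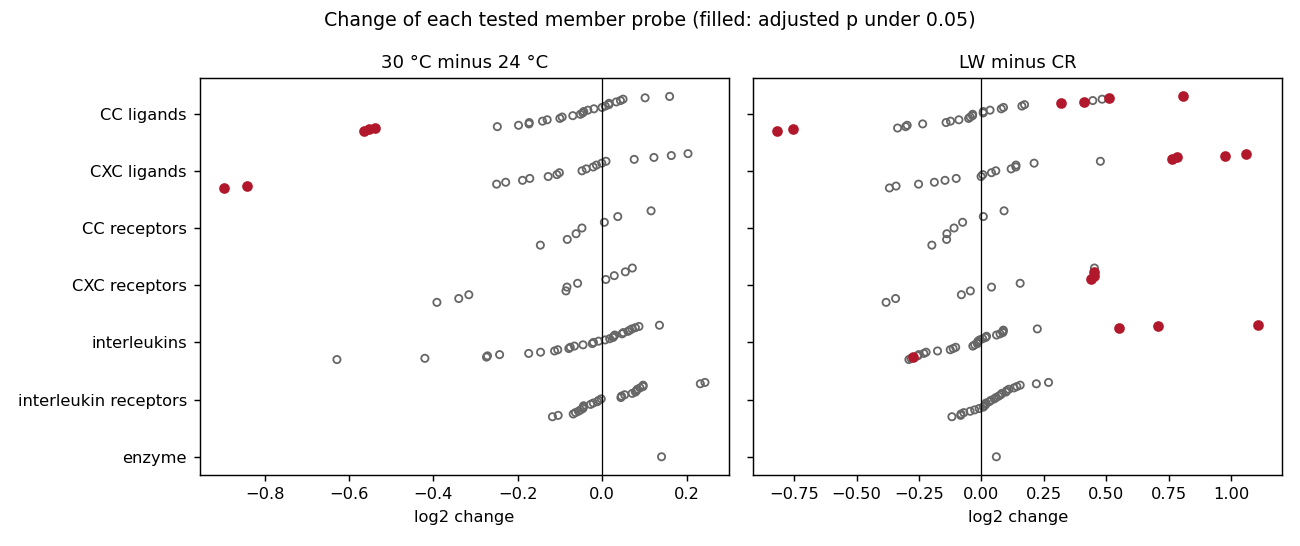
Log2 change of each of the 118 member probes by family, HS minus TN on the left and LW minus CR on the right, with filled red points for adjusted p under 0.05 and open points for the rest. With heat the filled points are those of CCL2 (-0.56 to -0.54) and CXCL2 (-0.90 and -0.84), and between the breeds they reach 1.11 for IL15 and -0.82 for CCL27.

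Genes downstream and other cytokine genes were also counted with heat, where 1.18% of all tested probes were called. At that share, lists of 48 and 35 genes can easily hold no call, so their counts show little about the pathway. Of 48 tested genes of cytokine signal transduction (JAK and STAT proteins, their inhibitors, adaptors of the interleukin 1 receptor and NF-kappa B subunits), none was called and the median change was 0.03. Of 35 tested cytokine genes outside the naming rule, such as TNF, colony-stimulating factors, interferon receptors and CX3CL1, none was called and the median change was 0.01.

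In single breeds no member was called by limma. At an unadjusted p under 0.05 there were 12 members in CR (10.2%, against 5.75% of all probes), 12 in F1 (10.2%, against 10.6%) and 18 in LW (15.3%, against 4.01%). Of all probes, 0.387% were called in CR, 0.383% in F1 and 0% in LW. In CR the smallest p after CXCL2 belonged to CCR9 (0.18), IL13RA1 (0.23), IL6R at O7846 (0.19), CXCL12 (-0.32) and IL1A (-0.50). Without CR TN replicate 4, the highest pig for IL1A at 7.65, these values were -0.17 for IL1A and 0.096 for IL6R. From processed signals scaled to the 75th percentile they were -1.07 for IL1A and 0.42 for CCR9. The main IL6R probe has the same 60 bases as O7846, yet their deviations from group means followed each other with only r = 0.39. In F1 CXCL2 was followed by CCL25 at O475 (0.36), IL6ST (0.29), CCL22 (0.23), CCL2 (-0.47) and CCR9 (0.17). Between O475 and the main CCL25 probe the r of these deviations was -0.02. In LW CCL2 (-0.90, adjusted p 0.122) led CXCL2, IL1B (-0.98), CXCR2 (-0.49), IL6 (-0.36) and CXCL10 (-0.67).

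The LW count rested on single pigs: it was 3 without LW HS replicate 3, where CCL2 at A_72_P412643 had an adjusted p of 0.0325, and 1 without LW TN replicate 1, where that probe had 0.0496. Without LW TN replicate 1, CXCL2 was also called within F1 (adjusted p 0.0359). That pig was the lowest of its group for CXCL2, at 10.63, with the nearest at 11.83.

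The interaction of breed and temperature was called for no member and for 0% of all probes, with 10 members (8.47%) and 4.67% of all probes at an unadjusted p under 0.05. The smallest p of this joint test over the 3 breeds belonged to CXCL12 at probe A_72_P713558 (unadjusted p 0.00709), followed by CCL22, CXCL10, CCL25 at O475, IL6ST and CXCL11. CXCL10 and CXCL11 are, with CXCL9, the interferon-induced ligands of CXCR3 that draw activated T cells, and CXCL10 lies beside CXCL11 in the pig gene order of Sscrofa11.1, with CXCL9 close by. CXCL10 at probe A_72_P509208 had heat changes of 0.43 for CR pigs, -0.27 for F1 pigs and -0.67 for LW pigs, and the difference between the LW and CR changes was -1.10 (SE 0.39). The joint test of both interaction terms, which also takes in the F1 change, gave CXCL10 an unadjusted p of 0.0269 and an adjusted p of 0.9999.

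CXCL9 varied most over pigs within a group among the members' main probes, with an SD of 0.74. In its main probe the CR HS pigs ran from 7.50 through 8.51 to 10.44, and the LW TN pigs from 8.13 through 8.98 to 9.61. The highest value over all 36 pigs was that of CR HS replicate 5 for CXCL9 (10.44), CXCL10 (12.33), CXCL11 (7.89) and also CXCL13 (8.15), the B cell attractant. Without this pig the difference between the LW and CR heat changes was -0.84 for CXCL10 and -0.57 for CXCL11, in place of -1.10 and -0.90.

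**Figure D3:**
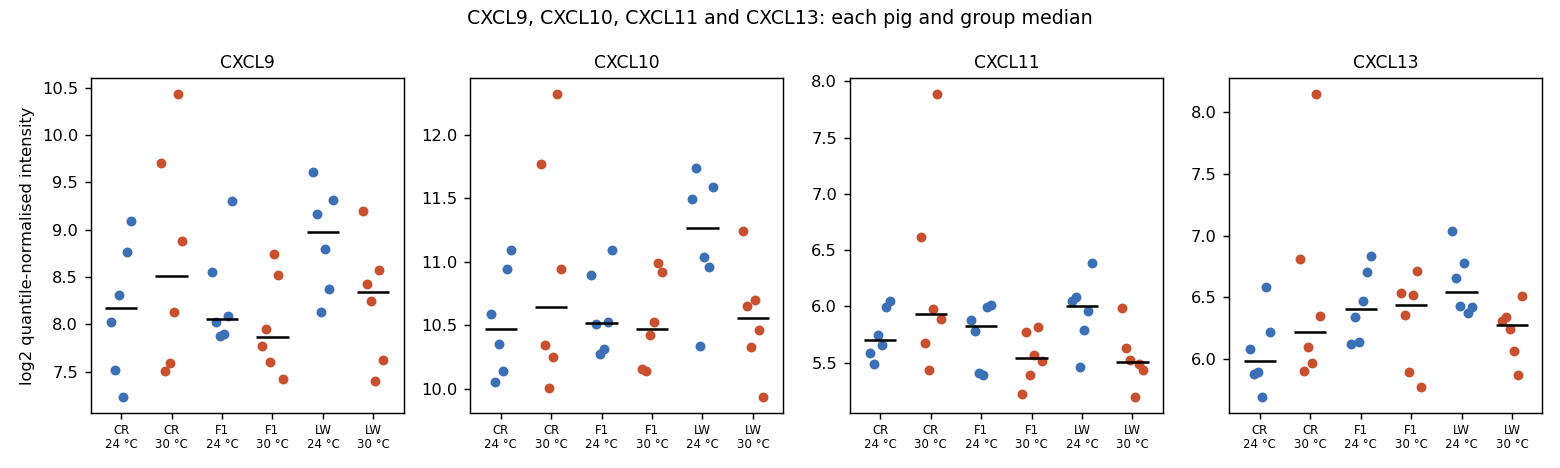
Log2 quantile-normalised intensity of the main probes of CXCL9, CXCL10, CXCL11 and CXCL13, 1 point per pig, blue at 24 °C and red at 30 °C, with a bar at each group's median. A single CR pig at 30 °C is the highest in all 4 panels, at 10.44, 12.33, 7.89 and 8.15.

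The second comparison asked which members differed between the LW and CR breeds over both temperatures. IL15, CXCL12, CCL21, CXCL2, CCL28, CXCR2, CXCR4, CCL19 and CCL3L1 were higher in LW at one or more probes, and CCL27 and IL18 were lower. In all, 17 of 118 probes were called (14.4%), 14 higher and 3 lower. This share was close to the 12.9% called among all tested probes, made up of 7.17% of all tested probes called higher and 5.73% called lower. The median change was 0.01 for members and 0.00 for all probes, and at an unadjusted p under 0.05 the shares were 25.4% and 26.2%.

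IL15 had the smallest p of all members. At the main probe, A_72_P580842, CR pigs ran from 8.38 through 8.84 to 9.17, F1 pigs from 8.45 through 9.39 to 9.87 and LW pigs from 9.01 through 9.52 to 9.98. LW and CR overlapped only between 9.01 and 9.17, and F1 spanned most of both ranges. LW minus CR was 0.71 (SE 0.12, adjusted p 0.000108). It was 0.78 at 24 °C and 0.63 at 30 °C, and all 12 LW pigs lay above the CR mean at their temperature.

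The other IL15 probes also passed. O14994 gave 1.11 (SE 0.16, adjusted p 1.14e-05), a 2.16-fold difference, and A_72_P035856 gave 0.55 (SE 0.11, adjusted p 0.00116), although they share 29 bases. F1 minus CR was 0.42 at the main probe (adjusted p 0.0447) and 0.74 at O14994 (adjusted p 0.00631), and these were the only members called in F1 against CR, 1.69% of members beside 3.38% of all probes. F1 minus LW was -0.29 at the main probe (adjusted p 0.250). The F1 median for IL15 thus lay between those of the breeds, and F1 was not called against LW.

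CXCL12, the ligand of CXCR4, was higher in LW at 2 of 4 probes. At CUST_450_PI427286967 CR pigs ran from 12.31 through 13.27 to 14.31 and LW pigs from 13.08 through 13.91 to 15.68. The overlap was wide, with 5 of the LW pigs above 15 and every LW pig above the CR mean at its temperature. The difference was 1.06 (SE 0.28, adjusted p 0.00945), a 2.08-fold difference. At A_72_P232477, printed above, it was 0.98 (SE 0.26, adjusted p 0.0113). At O8813 it was 0.48 (adjusted p 0.0515), and at A_72_P713558 it was 0.04 (SE 0.12, adjusted p 0.877).

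The CXCL12 probes did not move as one. The deviations of both called probes from the group means followed each other with r = 0.98 over 36 pigs, while A_72_P713558 followed them with r = 0.60 and 0.62. The probes lie in different stretches of sequence with no shared run of 15 bases, and which CXCL12 transcripts each reads was not tested.

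CXCR4, the receptor of CXCL12, was higher in LW at 2 of 3 probes. At A_72_P661857 CR pigs ran from 8.08 through 8.37 to 9.18 and LW pigs from 8.33 through 8.71 to 9.68. The difference was 0.45 (SE 0.14, adjusted p 0.0311), and A_72_P088501 gave 0.44 (adjusted p 0.0102), where all 12 LW pigs lay above the CR mean. F1 kept to the CR level, with F1 minus CR of 0.02 and 0.01 and F1 minus LW of -0.43 at both probes, called at A_72_P088501 (adjusted p 0.0442) and not at A_72_P661857 (adjusted p 0.123). Over pigs, no relation of CXCL12 with CXCR4 passed once group means were removed (r = -0.29, permutation p 0.156, adjusted p 0.469).

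CCL21 and CCL19, both ligands of CCR7, are next to each other in the pig gene order of Sscrofa11.1, and CCL27, a skin-homing chemokine that acts on CCR10, follows with 1 gene between it and CCL19. CCL21 at A_72_P165806, printed above, ran from 9.29 through 9.89 to 10.84 in CR, from 9.01 through 9.98 to 10.62 in F1 and from 10.01 through 10.83 to 11.27 in LW. All 12 LW pigs lay above the CR mean at their temperature, and no F1 pig lay above the LW mean. LW minus CR was 0.81 (SE 0.18, adjusted p 0.00245) and F1 minus LW was -0.81 (adjusted p 0.0103). The main CCL21 probe, O12732, gave an LW minus CR change of 0.48 (SE 0.20, adjusted p 0.109) and an F1 minus LW change of -0.73 (adjusted p 0.0467).

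CCL19 was called at 1 of 2 probes. O555 gave 0.41 (SE 0.11, adjusted p 0.00757), and the main probe, A_72_P150086, gave 0.16 (adjusted p 0.414). The probes' deviations from group means followed each other with r = 0.60. CCR7, the shared receptor, had signals from 5.54 to 6.39 over all pigs and an LW minus CR change of 0.09 (adjusted p 0.535).

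CCL27 went the other way. At O7547 CR pigs ran from 6.71 through 8.27 to 8.94 and LW pigs from 6.60 through 7.46 to 8.38. Of 12 LW pigs, 10 lay below the CR mean, and the ranges overlapped almost in full, with a single CR pig at the low end. The difference was -0.82 (SE 0.23, adjusted p 0.0160). The second CCL27 probe shares 59 bases with the first and gave -0.76 (adjusted p 0.0125). F1 lay between, with F1 minus CR of -0.30 and no call against either breed.

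**Figure D4:**
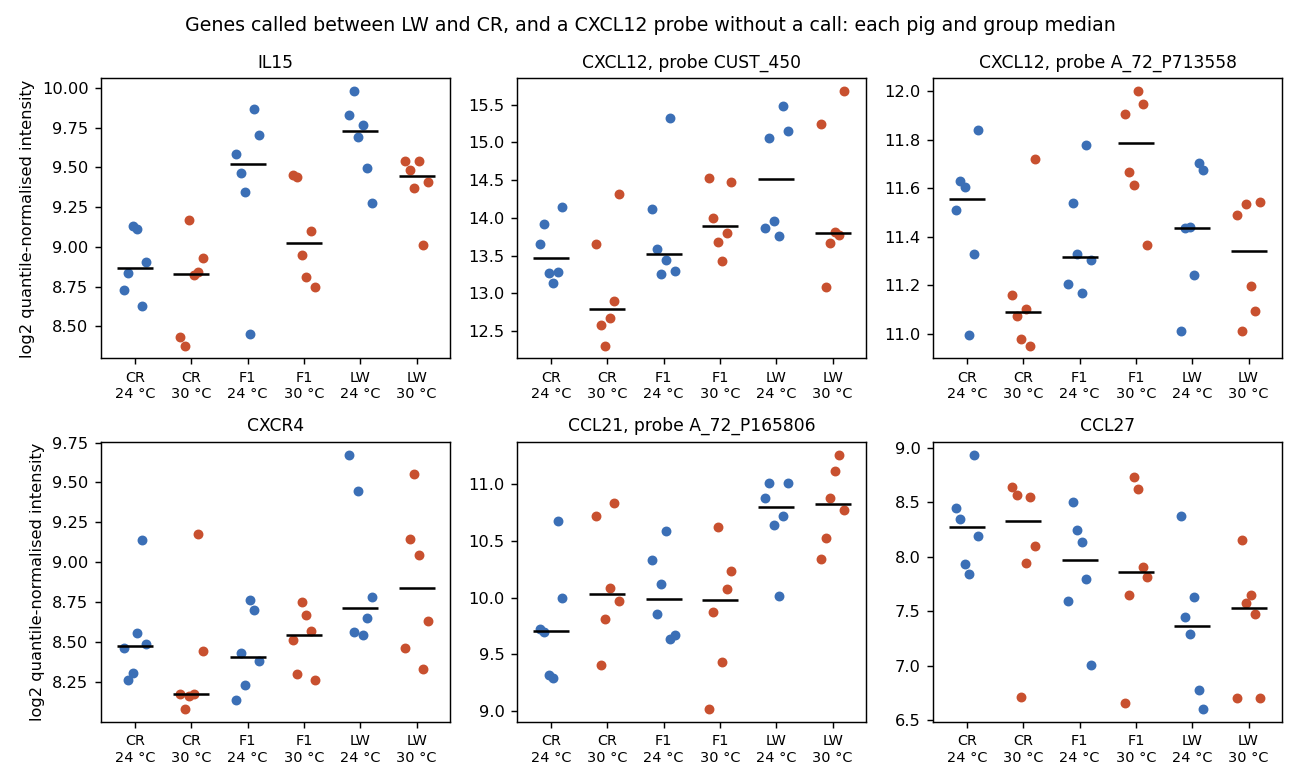
Log2 quantile-normalised intensity of IL15, 2 CXCL12 probes, CXCR4, CCL21 and CCL27, 1 point per pig, blue at 24 °C and red at 30 °C, with a bar at the median of each group of 6. IL15 and CCL21 sit higher in LW at both temperatures, CCL27 sits lower, and the CXCL12 probe A_72_P713558, with a difference of 0.04, shows no such shift.

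CXCL2 and its receptor CXCR2 were both higher in LW. CXCL2 at A_72_P146411 ran from 9.80 through 10.31 to 11.75 in CR and from 10.32 through 11.37 to 12.29 in LW, with 11 of 12 LW pigs above the CR mean at their temperature. The difference was 0.78 (SE 0.17, adjusted p 0.00146), nearly as large as the heat change and in the opposite direction, and it was 0.80 at 24 °C and 0.77 at 30 °C. Single slides gave 0.05, 0.23, 0.57, 1.27 and 2.26, but the breeds were not balanced by temperature within a slide. On slide 5, with 2.26, the LW pigs were at 24 °C and the CR pig, like the F1 pig, was at 30 °C. With temperature and slide both in the model the difference was 0.76 and was called. CXCR2 gave 0.45 (SE 0.12, adjusted p 0.00735). Of the 8 tested neutrophil markers, 4 lay above 0 and 4 below, with PGLYRP1 called higher in LW (0.39, adjusted p 0.00311), and their mean was between 8.27 and 9.38 in CR and between 8.53 and 9.97 in LW. The part of neutrophils in these differences was not tested.

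F1 pigs had CXCL2 and CXCR2 at the CR level. F1 minus CR was 0.09 for CXCL2 and -0.08 for CXCR2. F1 minus LW was -0.70 for CXCL2 (adjusted p 0.0190) and -0.53 for CXCR2 (adjusted p 0.00878). Of 12 F1 pigs, 1 lay above the LW mean for CXCL2 and none for CXCR2. In F1 against LW 6 members were called, all lower in F1, which is 5.08% of members beside 1.99% of all probes: both CXCL2 probes, both CCL21 probes, CXCR2 and CXCR4. Cell type markers were read in this comparison too. Of 7 adipocyte markers, all 7 lay above 0 in F1 minus LW with a median of 0.42 and 3 called, ADIPOQ, PLIN1 and CIDEC. Of 14 T and NK cell markers 12 lay below 0 with CD247 called (-0.51), of 9 blood endothelium markers 8 lay below 0 with TIE1 called (-0.33), and of 8 neutrophil markers 4 lay below 0 with PGLYRP1 called (-0.38). All 4 lymphatic endothelium markers lay below 0 and none was called. Their part in the F1 values was not tested. Heat, LW against CR and the F1 comparisons all use the same pigs, so these values are not independent of each other.

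CCL28, CCL3L1 and IL18 made up the rest of the calls. CCL28, an epithelial chemokine of mucosal tissues, differed by 0.51 at A_72_P077321 (SE 0.17, adjusted p 0.0468), with all 12 LW pigs above the CR mean, and by 0.45 at its other probe (adjusted p 0.0887). CCL3L1, of the MIP-1 alpha type, differed by 0.32 at A_72_P035356 (adjusted p 0.0128) and by 0.09 at its main probe (adjusted p 0.790). IL18, a cytokine that drives interferon gamma production, differed by -0.28 at A_72_P652365 (adjusted p 0.0441), and by -0.29 (adjusted p 0.0524) and -0.25 (adjusted p 0.167) at its others. The calls of CXCR2, CCL19, CCL3L1 and CXCR4 at A_72_P088501 came after the 10 largest and were named once their values were seen. IL18 and CCL28 lost their call under several processing settings.

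Cell type markers were also read between the breeds, where 12.9% of all tested probes were called. Of 9 tested blood endothelium markers, 5 were called higher in LW, among them KDR (0.73) and PECAM1 (0.35), and their mean signal ran from 11.88 to 12.38 in CR and from 12.24 to 12.59 in LW. Of 7 adipocyte markers, 4 were called lower in LW, among them ADIPOQ (-1.21) and PLIN1 (-1.20), and their mean ran from 9.63 to 10.90 in CR and from 9.38 to 10.37 in LW. None of 4 lymphatic endothelium markers was called, with a mean of 6.94 to 7.71 in CR and 6.80 to 7.77 in LW. Of 14 T and NK cell markers, 12 lay above 0 with a median of 0.17. CD247 alone of the 14 was called (0.60), no more than the share of all probes. Their mean was between 7.90 and 8.59 in CR and between 8.26 and 8.77 in LW. Among 14 macrophage and monocyte markers 1 was called lower in LW, as was 1 of 8 B and plasma cell markers. The part of these cell types in the breed differences of CXCL12, CXCR4, CCL21 and IL15 was not tested.

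F1 against the mean of both breeds gave no member called by limma, with 9 members at an unadjusted p under 0.05 (7.63%, against 10.4% of all probes) and 0.439% of all probes called. The smallest p belonged to IL33 (-0.27, adjusted p 0.187), an alarm cytokine of barrier tissues, then CXCR2 (-0.30), CCL21 (-0.48), CXCL12 at A_72_P713558 (0.22), IL34 (0.23) and CXCL2 (-0.31). In F1 against CR, after IL15, the smallest p belonged to IL18 (-0.28, adjusted p 0.0833), CCL28 (0.51, adjusted p 0.101), IL33 (-0.26), CCL3L1 (0.20) and CCL5 (-0.31).

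Members of wide interest that were not called in heat or LW against CR at any probe included CXCL8, CXCL10, CXCL13, CCL5, CCR7, IL1B, IL1R1, IL1RN, IL6, IL6R, IL6ST, IL10 and IL33. CXCL8, the best known neutrophil attractant, had a low signal: its main probe ran from 6.20 through 6.53 to 6.87 in TN and from 6.29 through 6.53 to 6.79 in HS pigs. A member probe with the same 60 bases as a tested CXCL8 probe did not pass the filter on dim signals. IL6 ran from 6.45 through 7.17 to 7.47 in TN and from 6.40 through 6.99 to 7.54 in HS pigs.

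IL6ST, the signalling subunit shared by the IL6 family, ran from 9.53 through 9.86 to 10.08 in TN and from 9.37 through 9.94 to 10.28 in HS pigs. IL10, an inhibitor of macrophage activation, ran from 6.60 through 7.17 to 7.58 in TN and from 6.67 through 7.19 to 7.89 in HS pigs. For all of these the temperature groups overlapped nearly in full. IL1RN, which blocks the interleukin 1 receptor, stayed between 7.50 and 8.39 at its main probe, and IL1R1, that receptor, ran from 7.42 through 7.91 to 8.40 in TN and from 7.37 through 8.17 to 8.93 in HS pigs. CCL5, a T cell attractant, spread widely, from 10.33 to 12.41.

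Spread over pigs within a group differed among the main probes. After CXCL9, the largest SDs were those of CXCL12 (0.73), CCL27 (0.62), CXCL14 (0.60) and CXCR7 (0.60). The smallest were those of CCL25 (0.08), CCL14 (0.11), CCR9 (0.11), IL6R (0.12) and CCR10 (0.13). The brightest main probes were those of CXCL12, CCL21, IL13RA1, IL4R and CCL5, and since signal depends on the probe this is no order of transcript amounts.

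Ligands and their receptors were set against each other over pigs, after the mean of each group was removed. Of 18 pairs listed, 12 had both genes tested, and p-values from 100000 permutations of pigs within groups were adjusted over the 12. CCL2 and its receptor CCR2 varied together (r = 0.57, permutation p 0.00116, adjusted p 0.0139, and rho = 0.51, permutation p 0.00352, adjusted p 0.0422). It was positive in each breed, with r = 0.55 in CR, 0.54 in F1 and 0.62 in LW, each over 12 pigs, and it was 0.57 without the 2 pigs farthest from the CCL2 median. With slide removed as well, r was 0.50 and the adjusted permutation p 0.0578. The CCR2 probe was dim, with a mean signal of 6.66 and values from 6.18 to 6.94 over all pigs. A copy of the same sequence, with a mean of 7.20, was not set against CCL2. The summed level of monocyte cells was not separated from this relation, whose source was not tested.

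**Figure D5:**
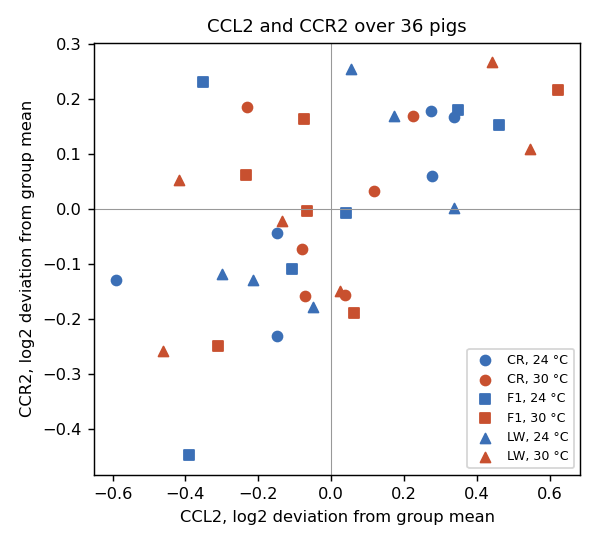
Deviation of each of the 36 pigs from its group mean for CCR2 against CCL2, in log2 units, with the marker shape for breed and blue or red for 24 °C or 30 °C. Pigs high for CCL2 tend to be high for CCR2, with r = 0.57 over all and 0.54 to 0.62 within breeds.

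No other pair passed. CXCL8 and CXCR1 had r = 0.27 (adjusted permutation p 0.469), and CXCL8 and CXCR2 r = -0.19. CCL19 and CCL21 each had an r with CCR7 of no more than 0.13. IL1B and IL1R1 had r = -0.12, and IL6 and IL6R r = 0.01. The r was 0.17 for CCL25 and CCR9, 0.13 for CXCL16 and CXCR6, and 0.06 for CXCL10 and CXCR3. Pairs whose receptor was not tested were those of CXCR5, CCR6, IL7R, IL15RA, IL18R1 and IL1RL1.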

How the data were processed

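RNA from 36 whole thyroids had been labelled with 1 dye and hybridised to Agilent pig arrays, read by the authors with Agilent Feature Extraction 10.10.1.1. The deposited scanner files hold the intensity of each spot; the median intensity of 60306 spots per array was used, 106 spots with a non-uniformity flag were set to missing, and control spots (1319) were left out. Intensities were quantile-normalised, log2-transformed and averaged per probe. The authors' deposited table of log2 values (46097 probes) differed from these by a median of 0.0056 and held 117 of the 118 members. The depth of an array has no count, so the number of arrays limits the precision.

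Models of breed plus temperature, and of the 6 groups, were fitted in limma 3.58.1 (R 4.3.3) on all 36 arrays, with Benjamini-Hochberg adjustment over 46222 probes. Probes entered if well above background on at least 5 of 6 arrays of a group. Pigs with separate labels were taken as independent, and littermates could not be identified from the labels. The models were tested on simulated data. Members and lists were chosen with earlier results of these data known. Named were the called members, up to 10 per direction in a comparison, the 6 smallest p where fewer than 6 were called, a fixed list of well-known cytokines, and the genes of highest and lowest SD and highest signal; the main probe of a gene is its brightest. Names came from the files or from a gene table of Sscrofa11.1, matched by symbol, accession, gene number or older symbol. Gene order was also taken from that table, and no coordinate is printed. Alternatives changed the scaling, the background correction, the filter, slide and array position, the value table and the breed term, and left out each pig. The result of 1 ligand and receptor pair is not reported here.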

Additional observations from a re-analysis of the deposited data

Results flagged for a closer look

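For the 21 member probes called in any comparison, each group of 6 pigs was searched for a highest or lowest pig that lay apart from the others. Of 126 groups, 19 held one, where chance flags about 1 in 20, and probes of a gene repeat the same pig. Single values follow, on the log2 signal scale.

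F1 HS replicate 5 was high for CXCL2, at 10.58 and 8.79 in its 2 probes, and for CCL2 at 10.84 (A_72_P675364). LW TN replicate 1 was low for CXCL2, at 10.63 and 8.93. F1 TN replicate 4 was low for IL15 in all 3 probes, at 7.54, 8.45 and 7.52, and LW HS replicate 5 in 2 of them, at 8.29 and 9.01. CR TN replicate 5 was high for CXCR4, at 9.14 and 7.92, and for CCL21 at 13.20 (O12732), and CR HS replicate 5 was high for CXCR4 at 9.18.

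Single probes set 5 further pigs apart. These were CCL27 in CR HS replicate 3 (low, 6.71), IL18 in CR HS replicate 2 (low, 7.51), CXCL12 at A_72_P232477 in F1 TN replicate 5 (high, 12.37), CCL21 at A_72_P165806 in LW TN replicate 4 (low, 10.01) and CCL3L1 in CR TN replicate 2 (low, 7.75).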

How the results depend on the processing

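The heat count stayed between 5 and 7 and the LW against CR count between 14 and 19 under all settings and with any pig left out, and the heat calls of CXCL2 and CCL2 and the LW against CR calls of CXCL2, IL15, CXCL12, CCL21 (A_72_P165806) and CCL27 were kept in each. Leaving out a pig gave 1 to 4 calls for F1 against CR, 4 to 6 for F1 against LW, 0 to 0 for F1 against the mean, within CR and the interaction, 0 to 1 within F1, 0 to 3 within LW and 1 to 2 pairs. For F1 against CR, 1 member was called when median intensities were scaled to each array's 75th percentile, with no filter on dim probes and with array position as a block, in place of 2. Leaving out CR TN replicate 4 gave 4 there, and leaving out any of 11 other pigs gave 1. Of the pairs, 2 passed with that scaling and 0 with slide as a fixed block. The CCL22 (O1137) change in the interaction of breed and temperature turned from -0.05 to 0.0292 with slide as a fixed block, neither called, and the cause was not tested. IL18 and CCL28 in LW against CR, IL15 (A_72_P580842) in F1 against CR, and CCL21 (O12732) and CXCR4 in F1 against LW lost their call in 2 to 4 settings (adjusted p up to 0.0964), and each did with 14 to 22 of the 36 pigs left out in turn, as did CXCR4 (A_72_P661857) in LW against CR with 7 and CXCL2 (A_72_P732383) in F1 against LW with 3. No paired analysis was possible because the labels give no shared replicate numbers. From processed signals scaled to the 75th percentile, uncalled values of low signal grew, IL33 in F1 against the mean from -0.27 to -0.53 and the CXCL11 (A_72_P442072) interaction from -0.90 to -1.84, while with normexp background correction they shrank to -0.17 and -0.60. IL33 in F1 against CR, IL6 (A_72_P680394) within LW and CCR9 within F1 moved likewise, by over 1.5 times in each direction and uncalled throughout. Dim members such as CXCL8 lie near background, where changes are compressed.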

Other observations

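Outside the naming rule, 26 probes carried a current symbol of these families through the gene table, and 18 were tested. CXCL16, the membrane-bound ligand of CXCR6, differed between LW and CR by 0.37 (adjusted p 0.0294) and 0.31 (adjusted p 0.0671) at 2 such probes, named after the scavenger receptor SR-PSOX, while the member probe named CXCL16 gave -0.10 (adjusted p 0.601). IL17RC, a subunit of the IL17 receptor, differed by 0.26 at A_72_P485860 (adjusted p 0.0171) and by -0.02 at A_72_P105306. None of the 18 was called with heat.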
